A study of Mus musculus with 16 samples.

Results

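Chromatin accessibility was compared between mouse embryonic stem cells (ESCs) that had lost Wdr5 and p53 and carried a stable S91K-Y191F WDR5 plasmid, and the parental ESCs of the same line. The comparison uses 4 of the 16 ATAC-seq libraries of the series, 2 for each group. ATAC-seq marks open DNA by the insertion of a transposase, and each library is represented here by its deposited list of peaks. Both groups were Rx:GFP knock-in ESCs kept undifferentiated in 2i+LIF. The S91K-Y191F ESCs are a double knockout of Wdr5 and Trp53, and the rescue construct is a human WDR5 by the title of the series. The parental ESCs carry the reporter and no listed knockout. The groups therefore differ in the p53 knockout, in the loss of mouse Wdr5, in the plasmid and in the mutated protein at once, and the parts these play cannot be told apart in this comparison. The labels do not say whether the double knockout is 1 clone or whether the replicates were grown apart, and a p-value below therefore speaks only of the spread among these libraries. The other 12 lists come from double knockout ESCs with a backbone plasmid, double knockout ESCs with wild-type WDR5 (WDR5WT), p53 knockout ESC clones C9 and H9, double knockout embryoid bodies and parental embryoid bodies (day 4), with 2 lists in each group.

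WDR5 is a scaffold protein that holds together the COMPASS and MLL complexes, which methylate lysine 4 of histone H3 at active promoters and enhancers, and it also serves in the NSL and ATAC acetyltransferase complexes. In ESCs it is known for its part in self-renewal. The transcription factor p53, encoded by Trp53, is stabilised by DNA damage and other stress and activates genes of cell cycle arrest, DNA repair and apoptosis. The 2i+LIF medium combines inhibitors of 2 kinases, MEK and GSK3, with leukaemia inhibitory factor and holds ESCs in the naive state of pluripotency.

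A region here is a stretch covered by peaks of the 4 lists that overlap by at least 1 bp, on chromosomes 1 to 19, X and Y. S91K-Y191F-only regions have a peak in both S91K-Y191F lists and in neither parental list, parental-only regions are the reverse, and shared regions have a peak in all 4 lists. The percentile of a peak is the percent of the peaks of its own list whose signal is not higher. The promoters of 6 genes show the DNA at the best placed regions of each direction. They are the first 3 promoters per direction that lie in the 10 regions with the highest percentiles, taken from the whole lists first and then from lists of equal length. Each sequence gives the 250 bases before the start site, from RefSeq (GRCm38.p6), on the strand of the gene. Capitals mark matches, on either strand, to GGGCGG (the GC box of SP and KLF factors), GCGCATGCG (NRF1), CCAATCAG (the CCAAT box of NFY) or TGACGTCA (the CREB and ATF site).
Rpl28: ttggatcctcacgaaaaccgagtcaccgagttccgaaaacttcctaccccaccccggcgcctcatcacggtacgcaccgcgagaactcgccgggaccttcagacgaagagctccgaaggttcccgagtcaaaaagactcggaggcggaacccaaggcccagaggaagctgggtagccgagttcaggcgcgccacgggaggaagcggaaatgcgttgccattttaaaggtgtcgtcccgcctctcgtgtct
Map2k7: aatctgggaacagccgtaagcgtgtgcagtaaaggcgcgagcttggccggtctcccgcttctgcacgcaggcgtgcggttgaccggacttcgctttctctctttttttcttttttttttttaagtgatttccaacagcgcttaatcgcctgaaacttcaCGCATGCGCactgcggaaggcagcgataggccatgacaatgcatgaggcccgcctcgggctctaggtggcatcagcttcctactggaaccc
Rab10: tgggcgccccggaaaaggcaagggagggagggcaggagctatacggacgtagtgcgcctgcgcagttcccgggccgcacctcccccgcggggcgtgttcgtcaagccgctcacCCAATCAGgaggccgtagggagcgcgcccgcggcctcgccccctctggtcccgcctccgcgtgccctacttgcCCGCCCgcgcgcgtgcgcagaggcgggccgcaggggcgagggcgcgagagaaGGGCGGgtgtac
Adcyap1r1: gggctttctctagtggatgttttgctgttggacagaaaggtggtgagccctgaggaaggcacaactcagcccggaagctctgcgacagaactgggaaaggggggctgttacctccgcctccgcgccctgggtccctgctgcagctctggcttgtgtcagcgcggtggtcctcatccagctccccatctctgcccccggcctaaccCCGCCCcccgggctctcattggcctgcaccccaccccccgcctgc
Fkbp4: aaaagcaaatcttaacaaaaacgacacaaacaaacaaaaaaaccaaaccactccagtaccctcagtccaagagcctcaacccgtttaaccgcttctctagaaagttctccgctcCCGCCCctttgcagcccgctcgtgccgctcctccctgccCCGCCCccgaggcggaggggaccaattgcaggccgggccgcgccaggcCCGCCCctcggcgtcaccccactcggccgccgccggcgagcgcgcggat
Irf2bpl: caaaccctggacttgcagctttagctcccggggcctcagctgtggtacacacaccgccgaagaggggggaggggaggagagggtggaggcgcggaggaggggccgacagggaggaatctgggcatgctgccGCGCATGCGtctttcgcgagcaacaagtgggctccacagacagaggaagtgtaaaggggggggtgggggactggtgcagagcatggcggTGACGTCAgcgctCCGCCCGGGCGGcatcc

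The first 3 belong to regions of the S91K-Y191F ESCs. Rpl28 encodes a protein of the large ribosomal subunit, and its 250 bases lie at chr7:4792715-4792964 on the plus strand. Map2k7 encodes a kinase that activates JNK and lies at chr8:4238490-4238739 on the plus strand. Rab10 encodes a GTPase of vesicle transport and lies at chr12:3309970-3310219 on the minus strand. The other 3 belong to regions of the parental ESCs. Adcyap1r1 encodes the receptor of the neuropeptide PACAP and lies at chr6:55451728-55451977 on the plus strand. Fkbp4 encodes a co-chaperone of steroid receptors and lies at chr6:128438657-128438906 on the minus strand. Irf2bpl encodes a protein related to the binding partners of interferon regulatory factor 2 and lies at chr12:86884815-86885064 on the minus strand. G and C made up 60%, 54.4% and 74.8% of the bases in Rpl28, Map2k7 and Rab10, and 65.6%, 63.2% and 66.8% in Adcyap1r1, Fkbp4 and Irf2bpl. The 6 stretches hold between 11 CpG dinucleotides in Adcyap1r1 and 34 in Rab10. The median over all RefSeq promoter windows, which are 300 bases long, is 13.

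The lists differed in length between replicates more than between groups. S91K-Y191F ESCs had 5174 peaks in replicate 1 and 16257 in replicate 2, against 24367 in parental replicate 1 and 5330 in parental replicate 2. Each group thus holds 1 short and 1 long list. The means were 10716 ± 7837 peaks in S91K-Y191F ESCs and 14849 ± 13461 in parental ESCs (SD, n = 2 each). On the log10 scale the difference was -0.09 (exact permutation test, two-sided, p = 0.667), and 0.33 is the smallest p that 2 libraries against 2 can give. No test of libraries here can therefore pass 0.05. The lists hold no read counts, and neither depth nor an interval for counting error can be stated. The median peak width was 587 and 579 bp in S91K-Y191F ESCs and 595 and 587.5 bp in parental ESCs. These values lie close together and do not overlap between the groups (exact permutation test, two-sided, p = 0.33). At equal list length, described below, they were 587 and 881.5 bp in S91K-Y191F ESCs and 1033.5 and 595 bp in parental ESCs, which overlap (exact permutation test, two-sided, p = 0.667).

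Markers of the labelled cell type were present, and more of them in the long lists. An end peak of a protein-coding gene lies at most 1000 bp from its first or last base. Of 10 ESC markers, 2 and 6 had one in the S91K-Y191F lists, against 9 and 3 in the parental lists. Zfp42 (REX1), a zinc finger protein of the naive state, was at percentiles 90.2 and 95.9 in S91K-Y191F ESCs and 93.5 and 81.9 in parental ESCs. Pou5f1, the core pluripotency factor OCT4, had an end peak in parental replicate 1 only, and Esrrb had none in these lists. None of 10 fibroblast markers and none of 6 neural markers had an end peak in either S91K-Y191F list, against 1 of each in parental replicate 1 and none in parental replicate 2. Of 5 endoderm markers 0 and 2 had one in the S91K-Y191F lists, against 3 and 0 in the parental lists, and of 5 mesoderm markers 0 and 0, against 2 and 0. Longer lists of genes of other tissues did include some with end peaks: 3 and 8 of 23 neural and eye field genes in the S91K-Y191F lists, against 14 and 1 in the parental lists, and 1 and 4 of 20 fibroblast and mesenchyme genes in the S91K-Y191F lists, against 6 and 2 in the parental lists. The counts were higher in the long list of each group for the markers and for these genes, apart from markers with none in both lists. Wdr5 had no end peak in any of the 4 lists. Trp53 had one in S91K-Y191F replicate 2, at percentile 61.9, and in parental replicate 1, at percentile 50.3. An open promoter does not show whether an exon was deleted, so these values do not check the knockouts.

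Few regions separated the groups when whole lists were compared. Of 26978 merged regions, 116 were S91K-Y191F-only (0.43%), 170 were parental-only (0.63%) and 3007 were shared (11.1%). Regions that followed list length were far more common: 10412 were in parental replicate 1 alone, and 7536 were in the 2 long lists, S91K-Y191F replicate 2 and parental replicate 1. The short lists were largely contained in the long ones. Of the peaks of S91K-Y191F replicate 1, 91.4% overlapped a peak of S91K-Y191F replicate 2 and 87.8% a peak of parental replicate 1. Of the peaks of parental replicate 2, 91% overlapped S91K-Y191F replicate 2 and 91.1% parental replicate 1.

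When each list was reduced to its 5174 highest signals, 8836 regions remained. Of these, 439 were S91K-Y191F-only (4.97%), 465 were parental-only (5.26%) and 2157 were shared. At this length 531 regions were in the 2 short lists only and 382 in the 2 long lists only, so the pairs of like length held about as many private regions as the groups did. Overlap at equal length averaged 67.5% between the S91K-Y191F lists and 63.8% between the parental lists, against 54.8% to 66.1% between lists of different groups. Most of these regions were present, lower down, in the long list of the other group: 423 of the 439 S91K-Y191F-only regions had a peak in the whole list of parental replicate 1, and 411 of the 465 parental-only regions had one in the whole list of S91K-Y191F replicate 2. The short lists are at or near this length when whole, so they add nothing on this.

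**Figure D1:**
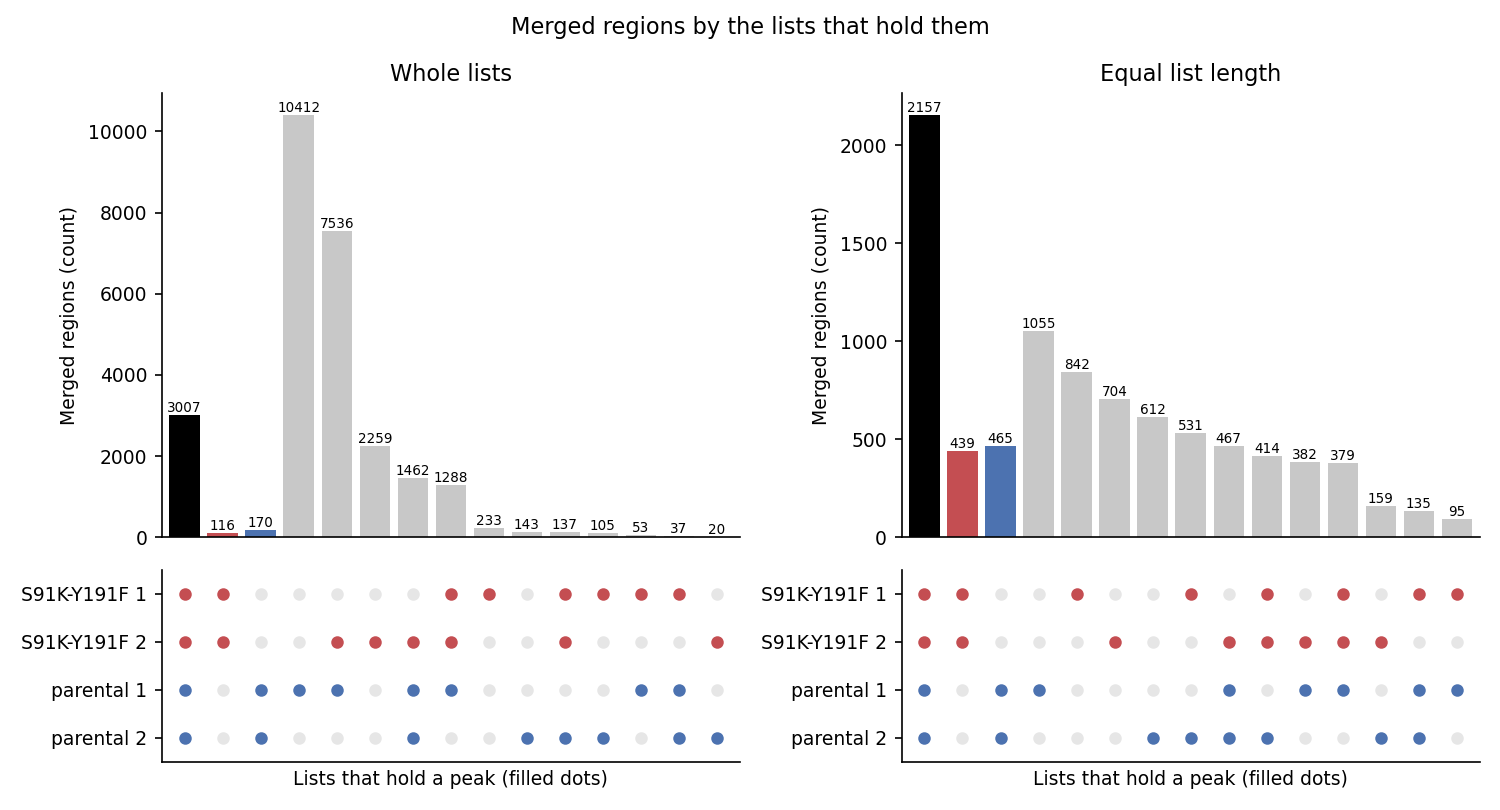
Merged regions by the lists that hold a peak in them, for whole lists and for lists reduced to equal length. Bars are counts of regions (black, all 4 lists; red, S91K-Y191F-only; blue, parental-only) and filled dots show the lists. With whole lists the tallest bars follow list length; at equal length 439 regions were S91K-Y191F-only and 465 parental-only.

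Regions specific to the S91K-Y191F ESCs gathered on chromosome 8. Of the 116 S91K-Y191F-only regions 70 were on chromosome 8 (60.3%), against 3 of the 170 parental-only regions (1.76%) and 12.7% of the shared regions. Of all merged regions of the whole lists 7.33% were there. At equal list length the counts were 127 of 439 S91K-Y191F-only regions (28.9%) and 10 of 465 parental-only regions (2.15%). The shares at that length were 10.3% of the shared regions and 10.8% of all regions. Leaving out 1 library made more regions specific and lowered the share of chromosome 8 among the S91K-Y191F-only ones, to 19.9% without S91K-Y191F replicate 1, 35.5% without S91K-Y191F replicate 2 and 19.4% without parental replicate 1. It was 52.7% when parental replicate 2 was left out. Some of these regions sit in a dense cluster: the window from 20 to 21 Mb of chromosome 8 alone held 231 and 259 peaks in the S91K-Y191F lists and 193 and 230 in the parental lists. This stretch lies among the alpha-defensin genes, a family of antimicrobial peptides in many near-identical copies, so the placement of reads there is uncertain. In the whole lists the genes with the most S91K-Y191F-only regions were predicted genes of this cluster, Gm15319 with 12, Gm21119 and 4930467E23Rik with 5 each, Gm40469 with 4 and 9530057J20Rik with 3. The highest placed S91K-Y191F-only region, chr8:20571881-20574169, lay 19655 bp from Gm40469, at percentiles 94.1 and 76.1.

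The pattern was also there outside such clusters. Without the 15 windows of 1 Mb that had at least 25 peaks in each list, 39 of 78 S91K-Y191F-only regions (50%) and 3 of 150 parental-only regions (2%) were on chromosome 8, against 8.77% of the shared regions. Chromosome 8 then held 11.3% and 8.59% of all peaks in the S91K-Y191F lists, against 5.29% and 6.12% in the parental lists. The means were 9.95% ± 1.93 in S91K-Y191F ESCs and 5.70% ± 0.587 in parental ESCs, a ratio of 1.74 (SD, n = 2 each; exact permutation test, two-sided, p = 0.33, the smallest possible). The groups do not overlap, and the short list of each group is above its long list. With the dense windows included they did overlap, at 16.0% and 10.4% in S91K-Y191F ESCs against 6.25% and 11.1% in parental ESCs (exact permutation test, two-sided, p = 0.667). The excess ran along the chromosome: in 12 of 13 bins of 10 Mb both S91K-Y191F shares were above both parental shares, and the reverse held in 0. Of the 21 chromosomes no other had both S91K-Y191F lists above both parental lists in whole lists outside the dense windows, while chromosomes 1, 3, 5, 6, 9, 11, 16 and 18 had both parental lists above. The set depended on the peaks counted. With the dense windows included it was chromosome 12 alone, at 4.54% and 4.60% in S91K-Y191F ESCs against 4.49% and 4.35% in parental ESCs. At equal list length it was chromosomes 8, 12 and 19 for all peaks, and 8, 12, 13, 15 and 19 outside the dense windows. Shares of 1 list sum to 100%, so a higher share of one chromosome lowers the others.

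The other 12 lists took no part in defining the regions. Outside the dense windows chromosome 8 held 13.7% and 14.0% of the peaks in backbone ESCs, 8.61% and 8.48% in WDR5WT ESCs, between 8.72% and 9.51% in the p53 knockout clones, 7.46% and 7.44% in double knockout embryoid bodies, and 5.22% and 5.29% in parental embryoid bodies. Outside these windows all lists of knockout cells were above all parental lists, whichever WDR5 they carried. With the dense windows included this did not hold, as parental ESC replicate 2 was at 11.1%. Backbone ESCs were then at 28.6% and 23.3%, WDR5WT ESCs at 8.86% and 8.73%, and the p53 knockout clones between 8.96% and 9.78%. Double knockout embryoid bodies were at 7.56% and 7.53%, and parental embryoid bodies at 5.29% and 5.37%. The files hold no read counts, so from these lists more open DNA on chromosome 8 and more copies of it cannot be told apart.

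**Figure D2:**
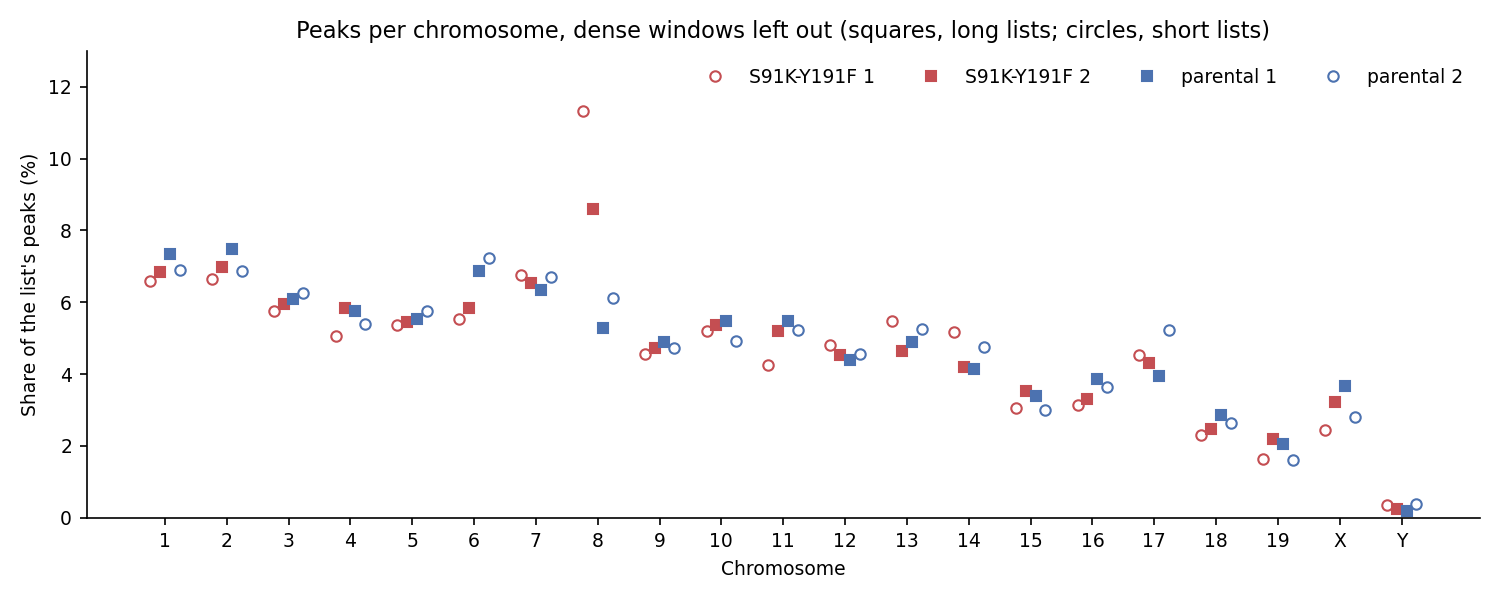
Share of each list's peaks on each chromosome, as percent of the list's peaks outside the dense windows, with 1 point per library (red, S91K-Y191F; blue, parental; squares, long lists; circles, short lists). On chromosome 8 the S91K-Y191F lists sit at 11.3% and 8.59% and the parental lists at 5.29% and 6.12%.

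Chromosome 6 was the reverse. It held 1 of the 116 S91K-Y191F-only regions (0.862%) and 25 of the 170 parental-only regions (14.7%), against 6.72% of the shared and 6.61% of all regions. Outside the dense windows the counts were 1 of 78 S91K-Y191F-only and 17 of 150 parental-only regions (11.3%). Chromosome 6 there held 5.53% and 5.83% of all peaks in the S91K-Y191F lists against 6.88% and 7.22% in the parental lists (exact permutation test, two-sided, p = 0.33). Both parental lists were above both S91K-Y191F lists in 7 of 15 bins of 10 Mb and below them in 0. The 4 bins from 110 to 150 Mb were among the 7, and this stretch, chosen after its values were seen, held 1.88% and 1.77% of the peaks in S91K-Y191F ESCs against 2.75% and 2.86% in parental ESCs. The rest of the chromosome held 3.65% and 4.06% in S91K-Y191F ESCs against 4.13% and 4.36% in parental ESCs. In the other lists the distal stretch held 0.748% and 1.69% in backbone ESCs, between 2.01% and 2.42% in the p53 knockout clones, 2.1% and 2.05% in WDR5WT ESCs, and 1.83% and 1.78% in double knockout embryoid bodies, against 1.87% and 1.80% in parental embryoid bodies.

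Genes of the distal part of chromosome 6 recur among the parental-only regions. Atg7, which encodes an enzyme of autophagosome formation, had 6 parental-only regions, and Hrh1, the histamine H1 receptor, had 2. These 8 lie in a dense window at 114 Mb with 54 and 41 peaks in S91K-Y191F ESCs and 60 and 73 in parental ESCs. Plekhg6, a guanine nucleotide exchange factor, had 2. The end peak region of Lag3, an inhibitory receptor of T cells, at chr6:124903466-124904113, was at percentiles 66.8 and 56.4 in parental ESCs and had a peak in 6 other ESC lists and in all 4 embryoid body lists. Nanog, the homeodomain factor of naive pluripotency, and Phc1, a subunit of Polycomb repressive complex 1, lie in this stretch too and are described with the gene lists.

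Among the regions present in all 4 lists, the 2 directions of order by signal were about equally common and differed in their spread over chromosomes. The 3007 shared regions were ranked within each list from 1, the lowest signal, to 3007. Both S91K-Y191F ranks were above both parental ranks in 511 regions (17%), and both parental ranks were above both S91K-Y191F ranks in 567 (18.9%). Ranks without any group difference would also put regions in both directions, so these totals alone do not show a difference between the groups. Of the 511, 34.6% lay on chromosome 8, 3.91% on chromosome 6 and 67.7% at a gene end. Of the 567, 1.41% lay on chromosome 8, 10.6% on chromosome 6 and 48.9% at a gene end. Of all 3007 shared regions these shares were 12.7%, 6.72% and 54.7%. Outside the dense windows 140 of the 231 shared regions of chromosome 8 were S91K-Y191F-above and 8 were parental-above. Chromosome 6 had 20 S91K-Y191F-above and 57 parental-above of 168 such regions, and chromosome 16 had 3 and 26 of 98. Chromosome 19, a short and gene-dense chromosome, had 12 S91K-Y191F-above and 0 parental-above of 35. Its share of peaks outside the dense windows overlapped between the groups in whole lists, at 1.63% and 2.19% in S91K-Y191F ESCs against 2.05% and 1.61% in parental ESCs, and did not overlap at equal length, at 1.63% and 1.72% in S91K-Y191F ESCs against 1.28% and 1.54% in parental ESCs.

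The single regions named next were picked by the widest gaps in these same ranks, so they show the extremes only. The end region of Cenpu, a subunit of the centromere complex, at chr8:46551582-46552447, ranked 1922 and 1870 in S91K-Y191F ESCs against 492 and 495 in parental ESCs. That of Dcaf15, the substrate receptor of a CUL4 ubiquitin ligase, at chr8:84104142-84105345, ranked 1893 and 2111 in S91K-Y191F ESCs against 531 and 250 in parental ESCs. Both are at gene ends, as are those of the predicted gene Gm51571 (2856 and 2375 in S91K-Y191F ESCs against 144 and 425 in parental ESCs) and of Rex1bd (1997 and 2161 in S91K-Y191F ESCs against 133 and 130 in parental ESCs), all on chromosome 8. A region 16444 bp from Gm5885 on chromosome 6 was among the 5 widest gaps too, at 2656 and 2776 in S91K-Y191F ESCs against 1220 and 310 in parental ESCs. In the other direction the 5 regions with the widest gap were all distant from gene ends. The region 5597 bp from Clca3b, of the calcium-activated chloride channel regulator family, ranked 193 and 387 in S91K-Y191F ESCs against 2792 and 2450 in parental ESCs. The region 29404 bp from Esp1, which encodes a pheromone peptide, ranked 34 and 412 in S91K-Y191F ESCs against 2333 and 2478 in parental ESCs. The other 3, on chromosomes 14, 16 and 12, had no gene end within 100 kb.

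**Figure D3:**
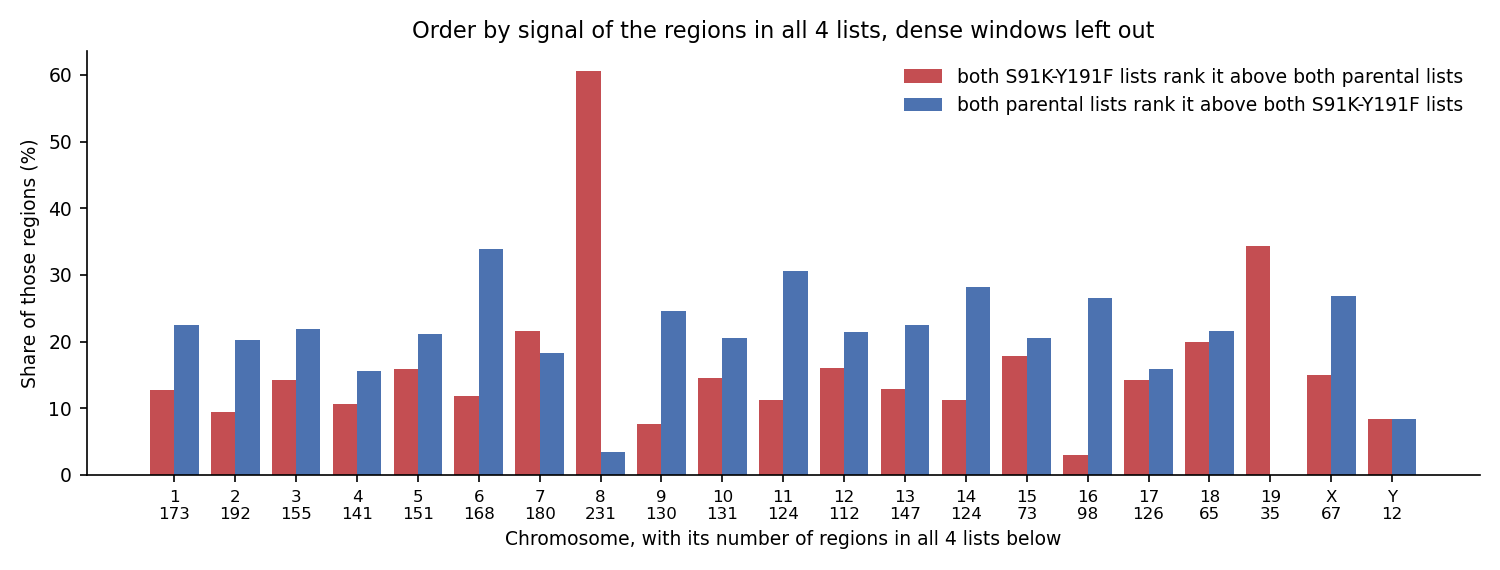
Percent of the regions in all 4 lists, by chromosome and outside the dense windows, that both S91K-Y191F lists rank above both parental lists (red) or the reverse (blue). On chromosome 8, 140 of 231 regions were S91K-Y191F-above and 8 parental-above, and on chromosome 6, 20 and 57 of 168.

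The position of the specific regions relative to genes differed between the directions at equal list length. Of the S91K-Y191F-only regions 245 of 439 were at a gene end (55.8%), against 80 of 465 parental-only regions (17.2%), with 60.9% for the shared regions and 43.8% for all regions. Without S91K-Y191F replicate 2 the shares were 41.7% of the S91K-Y191F-only regions and 34.3% of the parental-only regions. Without parental replicate 1 they were 57.2% and 25.8%. More than 100 kb from any gene end lay 19.1% of the S91K-Y191F-only regions and 35.7% of the parental-only regions. In the whole lists the shares were closer, with 26 of 116 S91K-Y191F-only regions (22.4%) and 27 of 170 parental-only regions (15.9%) at gene ends, both under the 54.7% of the shared regions. These shares turned with the library left out: without S91K-Y191F replicate 2 they were 13.6% of the S91K-Y191F-only and 39.7% of the parental-only regions, and without parental replicate 1 they were 52.2% of the S91K-Y191F-only and 12.3% of the parental-only regions. Without parental replicate 2 they were 14.6% of the S91K-Y191F-only and 21.0% of the parental-only regions. Per library at equal length, 47.7% and 54.7% of the peaks were at gene ends in S91K-Y191F ESCs, against 47.1% and 44.2% in parental ESCs. The means were 51.2% ± 4.95 in S91K-Y191F ESCs and 45.7% ± 2.04 in parental ESCs (SD, n = 2 each; exact permutation test, two-sided, p = 0.33). The groups do not overlap, but S91K-Y191F replicate 1 and parental replicate 1 lie close together, at 47.7% and 47.1%. For whole lists the shares were 47.7% and 41.5% in S91K-Y191F ESCs and 34.7% and 44.2% in parental ESCs, which overlap (exact permutation test, two-sided, p = 0.667).

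**Figure D4:**
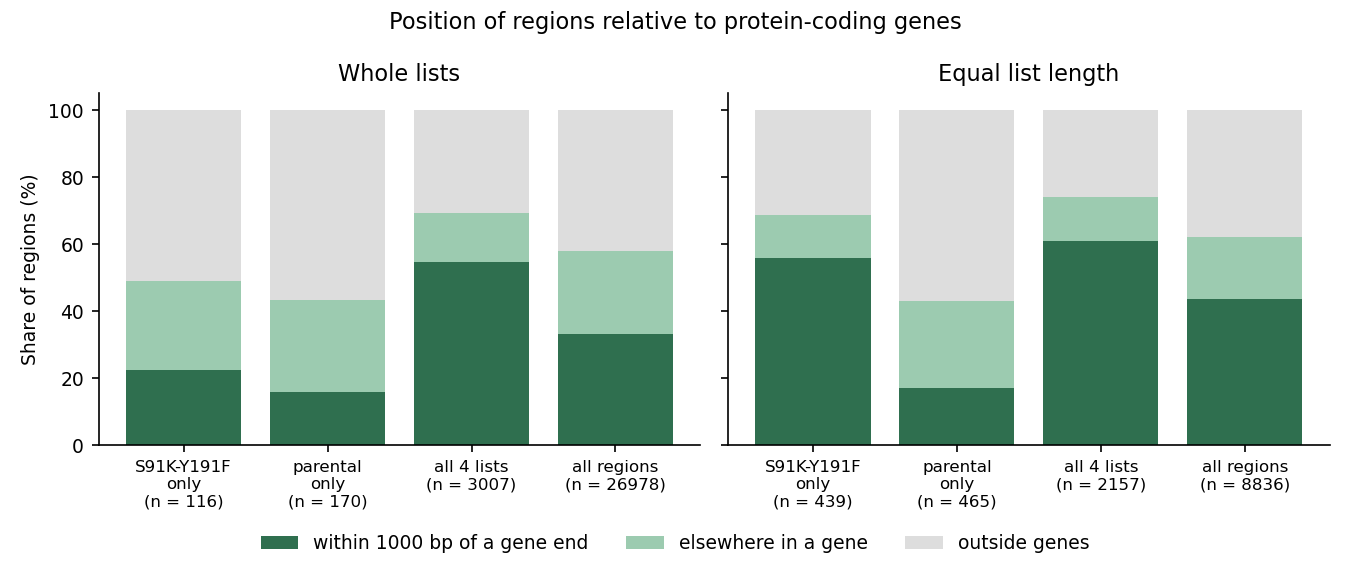
Position of the regions relative to protein-coding genes, as stacked percent of the regions of each kind, for whole lists and lists of equal length. At equal length 55.8% of the S91K-Y191F-only regions and 17.2% of the parental-only regions lay within 1000 bp of a gene end.

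Per gene, 21 of 21883 protein-coding genes (0.096%) had an end peak in both S91K-Y191F lists and neither parental list, and 24 (0.11%) had the reverse. Of the 21, 14 were on chromosome 8, and of the 24, 0 were. Of all peaks at gene ends, chromosome 8 held 11.9% and 7.98% in the S91K-Y191F lists and 5.77% and 7.43% in the parental lists. End peaks in all 4 lists were found at 1954 genes. Rpl28 was at percentiles 54.5 and 48.8 in the S91K-Y191F lists. Kmt2c, which encodes MLL3, a catalytic subunit of a COMPASS complex that methylates enhancers, was at 19.3 and 71.9. Among genes outside the naming rule, picked after their values were seen, Phlpp2, a phosphatase of AKT, was at 47.4 and 62.7, and Rab3a, a GTPase of vesicle release, at 43.4 and 81.3. On the parental side Adcyap1r1 was at 88.1 and 55.9 and Lag3 at 66.8 and 56.4. The parental-only regions with the highest percentiles were mostly distant from gene ends, such as chr3:151956959-151958189, with no gene end within 100 kb, at 91.8 and 64.8. Kcnh5 and Prkd1, a potassium channel and a protein kinase D, were the nearest genes of 2 others, 29518 and 92236 bp away.

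At equal list length 291 genes (1.33%) had an end peak in S91K-Y191F lists only and 78 (0.356%) in parental lists only. Chromosome 8 held 84 of the 291 and 0 of the 78, and without it 207 genes stand against 78. At this length it held 11.9% and 10.3% of all peaks at gene ends in S91K-Y191F ESCs, against 5.82% and 7.56% in parental ESCs. The 2 directions differ in the same sense as the shares of regions at gene ends. The highest placed S91K-Y191F-only regions at equal length were at Map2k7, at percentiles 87.7 and 95.7, Rab10, at 85.2 and 89.7, and Pabpc1, at 84.6 and 87.1. Pabpc1 encodes the cytoplasmic poly(A)-binding protein, and in parental replicate 1 its end peak stood at 73.5, below the peaks that this list kept at equal length. Percentiles refer to whole lists, and the cut to 5174 peaks falls at a higher percentile in a longer list. A gene can thus be S91K-Y191F-only although its percentile in parental replicate 1 is above those in S91K-Y191F ESCs. Genes with 2 S91K-Y191F-only regions at this length were Fat1, an atypical cadherin, Hmox1, the haem oxygenase, Irs2, an adaptor of the insulin receptor, and Wwc2, all on chromosome 8. On the parental side Fkbp4 was at 92.6 and 81.7 and Irf2bpl at 88.0 and 80.6, with 54.7 and 67.7 in S91K-Y191F replicate 2 and no peak in replicate 1. Ybx3, a cold shock domain protein that binds RNA, had 3 parental-only regions and lies on chromosome 6. Olfr59, an olfactory receptor, and Chil4, a chitinase-like protein, had 2 each.

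The best placed regions are a part of the regions of equal length counted above. Of all these, 55.8% of the S91K-Y191F-only and 17.2% of the parental-only regions were at a gene end. Of all S91K-Y191F-only ones, 95.7% had a peak in all 6 lists of p53 knockout and WDR5WT ESCs. Of the 10 best placed S91K-Y191F-only regions of equal length, those at Map2k7, Rab10, Pabpc1, Tmem253, Tppp3, Mbd3 and Ndufa13 were at a gene end. All 7 had a peak in 6 or 7 of the 8 other ESC lists and in all 4 embryoid body lists, and in the whole list of parental replicate 1 as well. Rab10 stood at 49.2 in parental replicate 1, against 77.7 for Map2k7. The region at Ndufa13, which encodes a subunit of respiratory complex I, was at 75.8 and 76.7 in S91K-Y191F ESCs against 17.6 in parental replicate 1, and the strongest end peak of the gene in parental replicate 1 stood at 43.1. The Fat1 region, 3909 bp from an end of the gene, was at 81.1 and 93.4 in S91K-Y191F ESCs against 39.5 in parental replicate 1. A region 38353 bp from Ptma, the gene of prothymosin alpha, was at 77.3 and 88.8 in S91K-Y191F ESCs against 73.3 in parental replicate 1. None of these regions had a peak in parental replicate 2.

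Of the 10 best placed parental-only regions of equal length, those at Fkbp4 and Irf2bpl were at a gene end. The best placed one, chr13:85468767-85470878, has no gene end within 100 kb and stood at 66.4 in S91K-Y191F replicate 2, against 99.6 and 91.1 in parental ESCs. A region 5525 bp from an end of Clec4a2, a C-type lectin of myeloid cells, was at 59.9 in S91K-Y191F replicate 2, against 98.3 and 87.4 in parental ESCs. A region 27755 bp from Cbln4, a secreted synaptic organiser, was at 65.9 in S91K-Y191F replicate 2, against 97.4 and 85.4 in parental ESCs. None of the 10 had a peak in S91K-Y191F replicate 1. The regions near Gm3448 on chromosome 17 and chr4:31775757-31778832 had a peak in none of the other 12 lists. Outside chromosome 8, the S91K-Y191F-only region of the whole lists with the highest percentiles lay 29374 bp from Ctnna3, an alpha-catenin gene, at 62.9 and 87.8, and was in 6 other ESC lists. The next one, 10835 bp from Mup17, of the major urinary protein family, was at 58.2 and 58.8.

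The WDR5 complexes, p53 targets and pluripotency genes were read against the shares of all genes. In whole lists 0.096% of all genes were S91K-Y191F-only and 0.11% parental-only, and at equal length 1.33% and 0.356%. The 20 gene lists hold 572 entries, of which 571 matched the gene table. With whole lists, Kmt2c was the 1 of 30 genes of WDR5 complexes and Rpl28 the 1 of 79 ribosomal protein genes with a S91K-Y191F-only end peak, and no list had a parental-only one. Both are counts of a single gene. At equal length Kmt2b, the MLL2 methyltransferase of bivalent promoters, joined Kmt2c, at percentiles 42.9 and 92.2 in S91K-Y191F ESCs against 73.7 in parental replicate 1 and no peak in replicate 2. Paxip1 and Psip1, which encode partners of MLL complexes, had end peaks in all 4 lists.

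No gene among 34 p53 targets had a group-specific end peak with whole lists or at equal length. At the shares of all genes given above, a list of this size would hold few or none. In all 4 lists an end peak was found at 7 of the 34 (20.6%), against 8.93% of all genes. Gadd45a, a stress gene of growth arrest, was at 85.9 and 95.6 in S91K-Y191F ESCs and 97.0 and 52.6 in parental ESCs. Ddb2, a damage sensor of nucleotide excision repair, was at 70.2 and 86.7 in S91K-Y191F ESCs and 94.9 and 56.6 in parental ESCs. Rrm2b, a ribonucleotide reductase subunit, was at 74.4 and 95.5 in S91K-Y191F ESCs and 93.8 and 70.9 in parental ESCs. In each of the 3 the long list of a group was above its short list and the groups overlapped. The other 4 were Apaf1, Plk2, Polk and Sesn1. In whole lists, end peaks lay at 10 and 17 of the 34 in S91K-Y191F ESCs, against 24 and 10 in parental ESCs. Ccng1, Xpc and Tigar lacked an end peak in S91K-Y191F replicate 1 alone, and Trp53inp1, Sesn2 and Ercc5 in parental replicate 2 alone. Ccng1 was at 77.1 in S91K-Y191F replicate 2, against 96.3 and 83.0 in parental ESCs. Cdkn1a, the cell cycle inhibitor p21, had an end peak in none of the 4 lists.

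Of 20 naive pluripotency genes 6 (30%) had an end peak in all 4 lists, against 8.93% of all genes: Klf2, Klf5, Sall1, Stat3, Tbx3 and Zfp42. Nanog was the 1 gene of the list that became group-specific at equal length, as parental-only, against 0.356% of all genes. This is a count of a single gene. Nanog had no end peak in S91K-Y191F replicate 1 and percentile 34.8 in replicate 2, against 79.5 and 29.1 in parental ESCs. The difference thus rests on its place in the long lists and its absence from 1 short list. Klf2, a Krüppel-like factor, was at 67.2 and 93.7 in S91K-Y191F ESCs and 80.1 and 67.3 in parental ESCs. Among 18 formative and primed genes Etv5, an ETS factor downstream of FGF, was S91K-Y191F-only at equal length, at 3.03 and 82.7 in S91K-Y191F ESCs against 60.4 in parental replicate 1 and no peak in replicate 2. None of 23 neural and eye field genes, 16 mesoderm genes, 15 endoderm genes, 12 trophectoderm genes, 20 fibroblast genes and 39 Hox genes was group-specific in either setting. Of all genes 0.096% were S91K-Y191F-only and 0.11% parental-only in whole lists, and 1.33% and 0.356% at equal length. At these shares, lists of this size would hold few or no such genes.

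Many of the remaining group-specific members were genes of protein synthesis and chromatin, of which the lists themselves hold many. At equal length 5 of 79 ribosomal protein genes (6.33%) were S91K-Y191F-only and 0 parental-only, against 1.33% and 0.356% of all genes. Ribosomal protein genes had more end peaks of any kind at this length, 31 of 79 against 4491 of 21883 genes in at least 1 list. In all 4 lists 13.9% of them had one, against 7.20% of all genes. Their S91K-Y191F-only share is thus not particular to that direction of change. Rps20 was at 64.1 and 68.3 in S91K-Y191F ESCs against 69.0 in parental replicate 1, so its call depends on where each list was cut. Rpl4 was at 47.5 and 79.7 in S91K-Y191F ESCs against 68.9 in parental replicate 1, and Rpl21 at 31.7 and 80.4 in S91K-Y191F ESCs against 75.5 in parental replicate 1. Rps25 was at 29.9 and 78.0 in S91K-Y191F ESCs against 57.1 in parental replicate 1. None of these 4 had an end peak in parental replicate 2. Of 34 translation factors Pabpc1 and Eef1g, an elongation factor subunit, were S91K-Y191F-only. Mbd3, a subunit of the NuRD repressor complex, was at 77.7 and 76.4 in S91K-Y191F ESCs against 72.8 in parental replicate 1. Mbd2, its relative that binds methylated DNA, was at 8.45 and 80.0 in S91K-Y191F ESCs against 64.1 in parental replicate 1. Srcap, the ATPase that deposits H2A.Z, was parental-only, at 60.0 in S91K-Y191F replicate 2 against 81.2 and 53.9 in parental ESCs. Phc1 was parental-only as well, at 65.7 in S91K-Y191F replicate 2 against 93.9 and 24.6 in parental ESCs, and Rbbp4, a histone-binding subunit of Polycomb and NuRD complexes, was S91K-Y191F-only, at 13 and 79.6 in S91K-Y191F ESCs against 52.3 in parental replicate 1. Fzd7, a Wnt receptor, Dusp4, a phosphatase of MAP kinases, and Rbl2, the retinoblastoma relative p130, were S91K-Y191F-only, the last 2 on chromosome 8. No gene of 40 in DNA replication and repair was group-specific, and at the shares of all genes a list of this size would hold few or none.

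At equal list length, and much less in whole lists, the specific regions of the 2 directions were found to different degrees in lists that took no part in choosing them. At equal length 96.4% to 97.3% of the S91K-Y191F-only regions had a peak in each of the 6 long ESC lists, those of p53 knockout and WDR5WT ESCs, against 46.5% to 50.5% of the parental-only regions and 85.7% to 86.5% of the shared regions. In double knockout embryoid bodies it was 82.0% to 84.1% of the S91K-Y191F-only regions and 35.1% to 37.0% of the parental-only regions, and in parental embryoid bodies 79.0% to 80.4% and 32.9% to 34.0%. Away from gene ends the long ESC lists held 92.3% to 94.3% of the S91K-Y191F-only regions and 36.6% to 41.8% of the parental-only regions. At gene ends it was 98.8% to 99.6% and 92.5% to 93.8%, and the gap between the directions was wider in the distal regions. In none of the 12 other lists were 5 of the 439 S91K-Y191F-only regions (1.14%) and 194 of the 465 parental-only regions (41.7%). Parental-only regions of this kind include both regions near Olfr59, both near Gm5709 and 1 of those near Chil4. For whole lists the long ESC lists held 47.4% to 50.9% of the S91K-Y191F-only regions and 42.9% to 48.2% of the parental-only regions, and double knockout embryoid bodies 37.9% to 39.7% and 35.3% to 36.5%. Outside the dense windows the long ESC lists held 70.5% to 74.4% of the S91K-Y191F-only regions and 48.7% to 54.7% of the parental-only regions. With whole lists 13 of 116 S91K-Y191F-only regions (11.2%) and 60 of 170 parental-only regions (35.3%) were in no other list. Without S91K-Y191F replicate 2 this turned round in whole lists, to 35.7% of the S91K-Y191F-only and 21.2% of the parental-only regions. At equal length without that library the shares were 12.5% of the S91K-Y191F-only regions and 26.7% of the parental-only regions. The 2 backbone lists, which are short, held 2.73% and 10.7% of the S91K-Y191F-only regions and 0.215% and 1.29% of the parental-only regions of equal length.

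**Figure D5:**
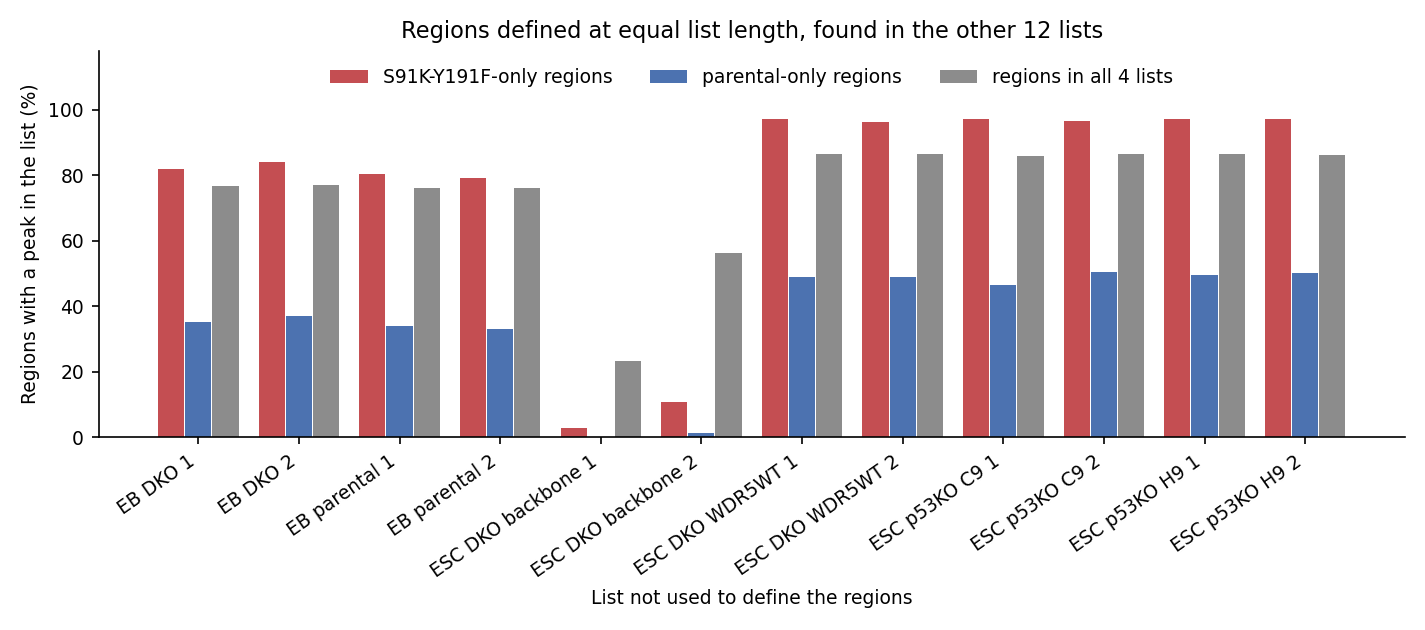
Percent of the S91K-Y191F-only (red), parental-only (blue) and shared (grey) regions of equal list length that have a peak in each of the other 12 lists. In the p53 knockout and WDR5WT ESC lists the S91K-Y191F-only regions reach 96.4% to 97.3% and the parental-only regions 46.5% to 50.5%.

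The promoters in the specific regions of both directions were richer in G and C than promoters at large. RefSeq gives 21262 start windows of 300 bases (250 before to 50 after the start) for 17491 of the genes. At equal length 240 windows overlapped S91K-Y191F-only regions and 74 overlapped parental-only regions. Their median GC content was 64.8% and 62.8%, against 64.0% at shared regions and 56.3% in all windows. The letters GGGCGG, on either strand, were in 79.6% of the S91K-Y191F-only windows and 58.1% of the parental-only windows, against 75% of the shared windows and 46.2% of all. CCAATCAG was in 12.5% of the S91K-Y191F-only windows and 14.9% of the parental-only windows, against 9.59% of the shared and 4.85% of all. GCGCATGCG was in 4.17% and 4.05% of them, against 3.22% of the shared and 2.35% of all, and TGACGTCA in 2.92% and 6.76%, against 3.60% of the shared and 2.23% of all. CCGGAAGT, the core of ETS sites, was in 7.92% of the S91K-Y191F-only windows and 10.8% of the parental-only windows, AAGATGGCG (YY1) in 5.83% and 1.35%, and CACGTG (the E-box of MYC) in 11.2% and 5.41%. In the shared windows these were in 8.30%, 3.41% and 10.2%, and in all windows in 5.15%, 1.83% and 7.84%. The counts were 14 S91K-Y191F-only windows and 1 parental-only window for AAGATGGCG, and 27 and 4 for CACGTG. AGGCCTNG (ZFX) was in 6.25% and 4.05% of the specific windows, against 5.47% of the shared and 5.33% of all. TGANTCA (AP-1), ATGCAAAT (OCT4), ACAATGG (SOX), GGGTGTGG (KLF4), TCAAGGTCA (ESRRB), AGGGGGCGC (CTCF) and ACATTCCA (TEAD) were each in at most 4.05% of the windows of either direction. TGANTCA was in 0.833% of the S91K-Y191F-only and 2.70% of the parental-only windows, against 2.51% of the shared and 6.99% of all. Each of the others was in at most 3.63% of all windows. In the whole lists, with 22 S91K-Y191F-only and 18 parental-only windows, the differences in GGGCGG, AAGATGGCG and CACGTG did not recur. GGGCGG was in 12 S91K-Y191F-only windows (54.5%) and 12 parental-only windows (66.7%). There AAGATGGCG was in 1 window of each direction and CACGTG in 2 of each. Matches to different motifs may overlap. A match is a description of the letters and not evidence of a bound factor. In the sequences printed above, GGGCGG occurs in Rab10, Adcyap1r1, Fkbp4 and Irf2bpl.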

How the data were processed

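ATAC-seq was analysed from the deposited peak lists of 2 S91K-Y191F and 2 parental ESC libraries, with 12 further lists for comparison. The deposited ESC lists give a signal of unstated scaling, never under 200 in the 4 lists compared, and a −log10 p-value for each peak. The deposited embryoid body lists give a ratio (fold enrichment) and a −log10 p-value. The submitters' processing notes name mm10 and, without the role of each, DESeq2, MACS2 2.1.2, Genrich 0.6, Bowtie2 2.3.5 and SAMtools. Signals served to order the peaks of each list and were not compared between lists. Depth is not given in the sources used here. Peaks on other sequences than the 19 autosomes, X and Y were dropped, between 33 and 47 a list, and the rest were merged at 1 bp overlap. For equal list length each list kept its 5174 highest signals. Genes are the 21883 protein-coding genes of RefSeq GRCm38.p6, whose table has no strand, so that a peak within 1000 bp of either end counted, in place of start sites. A region was given the nearest gene end within 100 kb. Values of the libraries were tested with an exact permutation test, two-sided (scipy 1.17.1, Python 3.11.15), and counts of regions have no test. The region counting was checked on simulated lists. Genes were named by a rule: Wdr5 and Trp53; up to 3 group-specific genes per list and direction by percentile; the 10 genes with the most group-specific regions (5 at equal length); the 10 best placed regions; and the 5 widest gaps in order. Of these only a part is printed. The comparison, the gene lists, the motifs and the tests were chosen with earlier results of these data known. Alternatives were equal list length, the upper 50% of each list by p, ranking by p, lists of 50% of that length, merging within 200 bp, windows of 500 bp around summits, autosomes without chromosome 8, peaks of 5000 bp or less, gene end windows of 500 and 2500 bp, a replicate block, and leaving out each library. Leaving out dense windows, RefSeq start sites and a crossed block were added after seeing the data.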

Additional observations from a re-analysis of the deposited data

How the results depend on the processing

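Region counts depended on list length. S91K-Y191F-only regions numbered 116 in whole lists, 439 at equal list length and 46 on autosomes without chromosome 8, and parental-only regions 170 in whole lists and 465 at equal length. With the upper 50% of each list by p, shared regions numbered 1344, and 218 shared regions were S91K-Y191F-above and 236 parental-above. At 50% of the equal length the specific regions were 219 S91K-Y191F-only and 248 parental-only. Genes with a S91K-Y191F-only end peak numbered 21 in whole lists, 291 at equal length, 40 in the upper 50% and 7 without chromosome 8, against 24 and 78 parental-only genes in whole lists and at equal length. Of the 21 and 24 genes of the whole lists, 2 and 5 kept their call at equal length, 3 and 4 in the upper 50%, 18 and 22 with a window of 500 bp, and 15 and 10 with RefSeq start sites. 

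Leaving out 1 library makes each rule looser by construction. The counts then ran from 260 to 2391 S91K-Y191F-only regions and from 210 to 10590 parental-only regions, from 818 to 1297 and from 612 to 1520 at equal length, from 27 to 866 and from 26 to 2035 genes, and from 931 to 1529 S91K-Y191F-above and from 1066 to 1582 parental-above regions. The difference in log10 peak number ran from -0.42 to 0.24 and was reversed without S91K-Y191F replicate 1 (0.15) and without parental replicate 1 (0.24). The chromosome 8 share of S91K-Y191F-only regions was between 19.4% and 60.3% over 8 settings, lowest without parental replicate 1, and that of parental-only regions between 1.81% and 9.80%. At equal length the gene end share was between 41.7% and 60.3% of the S91K-Y191F-only regions and between 16.5% and 34.3% of the parental-only regions, with S91K-Y191F replicate 2 left out at 41.7% and 34.3%. In whole lists the gene end share was between 13.6% and 52.2% of the S91K-Y191F-only and between 12.3% and 39.7% of the parental-only regions. The share in no other list was between 3.68% and 35.7% and between 21.2% and 39.9%. Both contrasts changed direction without S91K-Y191F replicate 2, and that of the gene end share also without parental replicate 2, at 14.6% and 21.0%. At equal length parental-only regions in no other list ranged from 26.7% to 42.6%, and S91K-Y191F-only ones from 0% to 12.5%.

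With the replicate block the S91K-Y191F minus parental differences stayed at -0.09 for log10 peak number, 5.18 percentage points for the gene end share, 4.52 points for the chromosome 8 share and -8.25 bp for median width, at p = 1, 1, 1 and 0.5 (exact sign-flip permutation test, smallest possible p 0.5). The labels do not say what a number marks, and the replicate 1 minus replicate 2 orders of the shared regions correlated at -0.553 between the groups, as short and long lists also lie. The crossed replicate block pairs the short lists with each other and the long lists with each other. Each of the 4 measures was then at p = 0.5 (exact sign-flip permutation test). This is the smallest p that the test can give, so no measure could have passed. For all 4 measures the S91K-Y191F minus parental difference had the same sign in both pairs. Depth is not known, and with 2 libraries a group the tests limit every statement to values and overlap.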

Other observations

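The same counting was applied to the other double knockout ESCs, which share the parental lists with the comparison above, so the counts are not independent. In whole lists backbone ESCs had, of 24867 merged regions, 107 group-only, 2886 parental-only and 872 shared, with 50 of the 107 on chromosome 8. WDR5WT ESCs had, of 42267 merged regions, 9471 group-only, 1195 parental-only and 3455 shared, with 1204 of the 9471 on chromosome 8. At equal length, 1535 peaks a list, backbone ESCs had 334 group-only and 332 parental-only of 2986 regions, 147 of the 334 on chromosome 8. At 5330 peaks a list WDR5WT ESCs had 1277 group-only and 1119 parental-only of 9729 regions, 196 of the 1277 on chromosome 8. The lists of these groups differ in length from those of the S91K-Y191F ESCs, so the counts stand side by side only.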
